A study of Homo sapiens with 4 samples.

Results

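The replication-dependent histone genes of hFOB 1.19 cells were followed through osteoblast mineralization. Members were the genes of the mRNA table whose symbols start with HIST1H, HIST2H, HIST3H or HIST4H, which gave 71 of 19610 gene symbols (84 of 79798 transcripts). Histone type was read from the symbol, and the members comprised 6 H1, 17 H2A, 18 H2B, 15 H3 and 15 H4 genes. The rule used symbols and no measured value, but it was chosen with earlier results of these data known. hFOB 1.19 is a line derived from human fetal osteoblasts and made to grow by a temperature-sensitive large T antigen of SV40. By the study's methods, cells grow at the lower, permissive temperature (day 0, the control) and are moved to the raised temperature to differentiate and mineralize, which the labels give as days 3, 6 and 9. All 4 groups carry the same large T antigen, have no other genetic change or agent in the labels, and consist of 1 library each, so day, temperature and loss of large T activity cannot be told apart. With 1 library per day, no difference has a replicate check and no test was made. Genes were called lower at a log2 ratio of -1 or less against day 0 and higher at 1 or more, which is a 2-fold limit.

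Replication-dependent histone genes supply the proteins that package newly copied DNA, and their transcripts accumulate during S phase of the cell cycle. The core types H2A, H2B, H3 and H4 form the nucleosome, and the linker histone H1 binds where DNA enters and leaves it. Their mRNAs have no introns and end in a stem-loop in place of a poly(A) tail, and the stem-loop is bound by SLBP. The genes lie in clusters, in which an H2A and an H2B gene often share 1 promoter region and are transcribed away from each other. In bone, osteoblast precursors divide and later leave the cycle as they lay down and mineralize matrix, and histone mRNA has long been used as a measure of that proliferation.

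The promoters of the most abundant member of each type on average over the 4 libraries are shown first, since the 5 types differ in the short elements upstream of their starts. Each is the run of 250 bases that ends just before the RefSeq transcript start, written 5′ to 3′ along the gene's strand (RefSeq, GRCh38.p14). Capitals mark 5 elements, searched by exact letters on both strands. The CCAAT box was searched by the letters of its name, and the TATA box as TATAAA. The octamer is ATTTGCAT, the letters of the H1 box are AAACACA, and those taken from the H4 element are GGTCCG.
HIST1H1C, H1-2, chr6:26056471-26056720, minus strand: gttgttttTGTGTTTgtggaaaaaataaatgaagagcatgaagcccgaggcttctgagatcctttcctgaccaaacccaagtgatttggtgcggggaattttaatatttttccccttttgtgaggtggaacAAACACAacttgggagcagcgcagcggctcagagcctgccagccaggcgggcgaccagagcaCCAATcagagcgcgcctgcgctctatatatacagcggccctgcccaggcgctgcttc
HIST2H2AA4, H2AC19, chr1:149850811-149851060, plus strand: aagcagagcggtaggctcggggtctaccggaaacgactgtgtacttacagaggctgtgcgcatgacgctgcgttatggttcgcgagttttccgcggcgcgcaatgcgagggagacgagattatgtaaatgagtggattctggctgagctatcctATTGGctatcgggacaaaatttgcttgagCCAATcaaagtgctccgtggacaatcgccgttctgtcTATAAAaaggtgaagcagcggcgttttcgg
HIST2H2BE, H2BC21, chr1:149886683-149886932, minus strand: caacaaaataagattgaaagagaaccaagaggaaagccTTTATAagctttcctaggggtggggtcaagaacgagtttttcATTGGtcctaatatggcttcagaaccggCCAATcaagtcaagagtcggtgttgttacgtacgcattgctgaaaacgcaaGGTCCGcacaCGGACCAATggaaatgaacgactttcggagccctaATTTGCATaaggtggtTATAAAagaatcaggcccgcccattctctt
HIST1H3C, H3C3, chr6:26045134-26045383, plus strand: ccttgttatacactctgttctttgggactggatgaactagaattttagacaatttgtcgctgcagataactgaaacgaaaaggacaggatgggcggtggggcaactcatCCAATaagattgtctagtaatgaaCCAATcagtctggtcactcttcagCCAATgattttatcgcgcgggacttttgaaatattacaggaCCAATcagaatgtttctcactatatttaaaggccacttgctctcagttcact
HIST1H4J, H4C11, chr6:27823842-27824091, plus strand: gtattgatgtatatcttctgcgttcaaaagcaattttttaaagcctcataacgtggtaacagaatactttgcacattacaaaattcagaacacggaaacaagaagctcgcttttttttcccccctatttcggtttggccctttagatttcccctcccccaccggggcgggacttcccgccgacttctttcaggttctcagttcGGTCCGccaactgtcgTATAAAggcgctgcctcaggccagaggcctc
HIST1H1C codes for a linker histone found in most somatic cells, and its promoter held 1 CCAAT and the H1 box letters at 119 bases and, reversed, at 242 bases before the start. HIST2H2AA4 codes for an H2A and held 2 CCAAT sequences with TATAAA at 30 bases before its start. HIST2H2BE codes for an H2B and held the octamer at 46 bases and TATAAA at 30 bases before its start. In HIST2H2BE the reverse letters of the H4 element run into a CCAAT, so the capitals there cover both. HIST1H3C codes for an H3 and held 4 CCAAT sequences and no exact TATAAA. HIST1H4J codes for an H4 and held the H4 letters at 47 bases and TATAAA at 31 bases before its start, with no CCAAT.

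Across the 66 members with a promoter in the RefSeq table, the elements followed the histone type. HIST1H2AH, HIST1H3I, HIST1H3J, HIST1H4A and HIST1H4C had no entry. CCAAT stood in all 6 H1, 16 H2A, 18 H2B and 13 H3 promoters and in 3 of 13 H4 promoters, while 32.0% of 35116 promoters of all genes held it in a window of the same length. The octamer stood in 11 of 16 H2A and 14 of 18 H2B promoters, in 1 of 13 H3 promoters and in no H1 or H4 promoter, against 1.63% of all promoters. The H3 promoter with it is that of HIST1H3D, whose RefSeq start is the same base as that of HIST1H2AD. Thus 1 of the 13 H3 windows is also the window of an H2A gene. Many H2A and H2B genes share a promoter region too, so these counts are not independent of each other. The H1 box letters stood in 6 of 6 H1 promoters and in no promoter of another type, against 4.82% of all promoters. The H4 letters stood in 12 of 13 H4 promoters and in 1 each of the H2A, H2B and H3 promoters, against 9.43% of all promoters. TATAAA was spread over the types, in 3 H1, 12 H2A, 12 H2B, 10 H3 and 7 H4 promoters, against 10.7% of all. The letters searched were chosen after these promoters had been seen, and a match is a description of the letters and not of binding.

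On day 0, histone transcripts were among the most abundant of the cells. FPKM (fragments per kilobase of transcript, scaled to the mapped fragments of the library, as deposited) was summed per symbol. The sum over the 71 members was 33929, 5346, 4111 and 3969 FPKM on days 0, 3, 6 and 9. The sum thus stood 6.35-fold, 8.25-fold and 8.55-fold lower on days 3, 6 and 9 than on day 0. Members took 5.49% of all FPKM on day 0, and 0.993%, 0.753% and 0.696% on the later days. The sum over all other genes was 583928, 532727, 541837 and 565954 FPKM, so the whole table moved far less. Among the 100 most abundant genes there were 12 members on day 0 and none on the later days, and among the 500 most abundant there were 53, 11, 6 and 5 members. Of the members that reached the minimum level, 59 had at least 100 FPKM on day 0 and 15 had on day 9.

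Every member that could be counted was lower on each later day. Of the 71 members, 66 reached 1 FPKM in any library and were counted, and 65 reached it in every library, so the minimum was met through day 0 alone only for HIST2H3PS2. All 66 were at least 2-fold lower on day 3, while 5.3% of the 12859 genes counted were. None was 2-fold higher, against 8.13% of genes. On day 6, 66 of 66 were lower (6.42% of genes) and 0 higher (9.01% of genes). On day 9, 66 of 66 were lower (6.52% of genes) and 0 higher (9.6% of genes). All 66 were lower on days 3, 6 and 9 together, as were 3.45% of genes, and 62 of 66 were at least 4-fold lower on all 3 days, as were 0.677% of genes. These 3 comparisons share the day 0 library, and the shares of genes include the members themselves. The median log2 ratio of the 66 members was -2.79, -3.19 and -3.28 on days 3, 6 and 9, and that of all genes was -0.08, -0.08 and -0.09. Among the 50 genes with the lowest log2 ratio there were 40, 42 and 42 members on days 3, 6 and 9. The 8 other genes of day 9 included PLK1, CDC20 and KIF20A, known from mitosis, and RBM3, a cold-induced RNA-binding protein, all named after their values were seen.

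**Figure D1:**
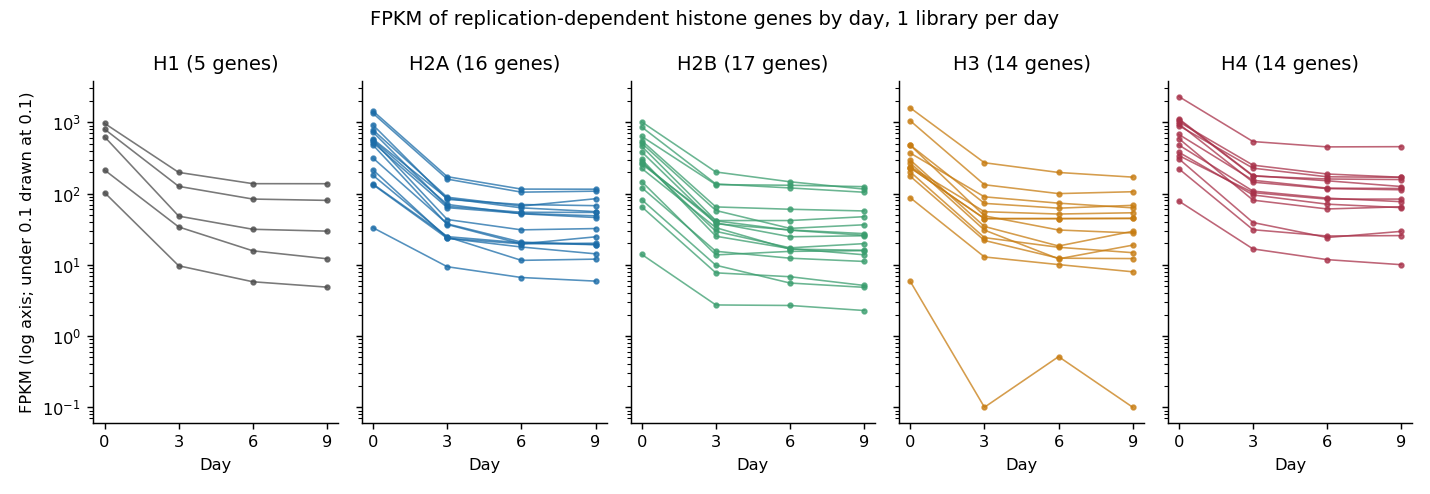
FPKM (log axis) of the 66 histone genes counted, on days 0, 3, 6 and 9, in 1 panel per histone type; each line is 1 gene and each point 1 library. All lines drop between day 0 and day 3 and most stay nearly level after that, from a median of 382.3 FPKM on day 0 to 46.3 on day 3 and 40.6 on day 9.

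Most of the drop was present on day 3. For the median member, 84.7% of the day 9 fall on the log2 scale was already there on day 3, and the range over members was 65.0 to 106%. Between day 3 and day 6, 61 of 66 members had a log2 ratio below 0, with a median of -0.41. In that step 3 members were at least 2-fold lower (0.443% of genes were) and 0 were 2-fold higher (0.607% of genes). These 3 were HIST1H1D at -1.07, HIST2H2AB at -1.03 and HIST1H3J at -1.27. Between day 6 and day 9 no member was 2-fold lower (0.163% of genes) or higher (0.381% of genes), 43 of 66 were below 0, and the median was -0.06. At the single-gene level, 42 of 66 members dropped at every step. Day 9 was the lowest library for 42 members, day 6 for 19 members and day 3 for 5 members.

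The linker histone H1 genes had the lowest type median on days 6 and 9. H1 compacts chromatin between nucleosomes, and its somatic genes differ in how closely they follow DNA replication. HIST1H1C was the most abundant, with 966 FPKM on day 0 and 198, 138 and 137 on days 3, 6 and 9. HIST1H1E, also a main somatic linker histone, had 802, 126, 83.7 and 80.2 FPKM. HIST1H1B dropped further, from 626 FPKM on day 0 to 48.2, 31.5 and 29.7. On the log2 scale, HIST1H1B reached -4.35 on day 9 and HIST1H1C -2.80, the lowest and the highest ratio of the type. As folds without an added value, HIST1H1B (21.1) and HIST1H1A (21.2) were nearly equal on day 9. HIST1H1D went from 214 FPKM to 34.0, 15.7 and 12.1, and HIST1H1A from 103 to 9.68, 5.78 and 4.86. HIST1H1D and HIST1H1A had log2 ratios of -4.03 and -4.15 on day 9. All 5 H1 genes fell further between day 3 and day 6. The log2 ratio of that step was -1.07 for HIST1H1D and between -0.66 (HIST1H1A) and -0.52 (HIST1H1C) for the others. The medians of the 5 genes were -2.66, -3.69 and -4.03 on days 3, 6 and 9. The testis gene HIST1H1T was at or under 0.1002 FPKM in every library and was not counted.

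The H2A genes dropped the most of the core types. H2A pairs with H2B in the dimers at the outer faces of the nucleosome. HIST2H2AA4 had 1436 FPKM on day 0 and 173, 116 and 115 on the later days, and its near-identical copy HIST2H2AA3 had 1332, 159, 105 and 108. The ratio between these copies was 1.08, 1.08, 1.10 and 1.07 over the 4 libraries, and how reads were shared between them is not known, so they are best read as 1 value. HIST1H2AI had 913, 82.8, 70.1 and 67.6 FPKM. HIST1H2AB had the lowest log2 ratio of the type on day 9, -4.22, with 478 FPKM on day 0 and 36.8, 19.7 and 24.7 later. HIST3H2A had the highest, -2.30, with 33.1, 9.39, 6.63 and 5.90 FPKM, and was the least abundant H2A counted. The other H2A genes lay between these, and the medians of the 16 were -3.04, -3.57 and -3.62. HIST1H2AA, known from testis, was listed at 0 in all 4 libraries.

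The H2B genes held both a member with one of the lowest ratios of all and several that kept more than 100 FPKM. HIST2H2BE had 1013 FPKM on day 0 and 201, 146 and 115 on the later days. HIST1H2BD had 859, 136, 120 and 104 FPKM. HIST1H2BJ had 635, 133, 131 and 125 FPKM, and so became the most abundant H2B on day 9. These 3 are among the genes known to make a polyadenylated mRNA as well. HIST1H2BB dropped from 301 FPKM to 25.2, 16.9 and 13.8, a log2 ratio of -4.35 on day 9. HIST3H2BB, also known from testis but counted here, had the highest ratio, -2.19, with 13.99, 2.73, 2.68 and 2.28 FPKM. At such low levels the ratio of FPKM + 1 understates the drop. As a fold without an added value, HIST1H2BJ dropped least by day 9, 5.08-fold against 6.14-fold for HIST3H2BB. The medians of the 17 genes were -2.93, -3.19 and -3.33. HIST1H2BA, the testis H2B that shares its promoter region with HIST1H2AA, was also listed at 0 in all 4 libraries.

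The H3 genes carry the tails on which many of the best known histone marks are placed. HIST1H3C was the most abundant, at 1594, 271, 198 and 170 FPKM. HIST1H3B followed at 1050, 133, 99.8 and 106 FPKM, and HIST1H3F at 477, 72.8, 62.3 and 68.4 FPKM. All 3 fell, to log2 ratios of -3.22, -3.29 and -2.79 on day 9. HIST2H3D had the lowest ratio, -4.04, with 476, 48.6, 30.8 and 27.9 FPKM, and HIST1H3E the highest, -2.13, with 238, 55.6, 51.6 and 53.7 FPKM. HIST2H3A and HIST2H3C had 231 FPKM each on day 0 and 44.8 each on day 9, with a ratio between 0.998 and 1.001 in every library, and they are copies of each other that the reads may not separate. HIST2H3PS2 was the only member listed at 0 on a later day among those counted, with 5.84, 0, 0.514 and 5.7e-05 FPKM, so it is given no fold. The medians of the 14 genes were -2.74, -3.00 and -3.25. The testis gene HIST3H3 had 0.809, 0.207, 0.392 and 0.172 FPKM and was not counted.

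The H4 genes kept more of their level than the other types. The H4 genes code for the same or nearly the same protein, which pairs with H3 in the core of the nucleosome. HIST1H4J was the most abundant member in every library, at 2299, 537, 452 and 455 FPKM. HIST2H4A followed at 1014, 250, 188 and 169 FPKM, and HIST1H4C at 1089, 176, 160 and 157. HIST1H4J alone made up 6.78% of the histone sum on day 0 and 11.5% on day 9. HIST4H4, the single member on chromosome 12, had the highest log2 ratio of all 66 on day 9, -2.02, with 341, 103, 83.5 and 83.6 FPKM. HIST1H4A had the lowest of the type, -3.34, with 307, 39.2, 24.15 and 29.45 FPKM. HIST2H4A stood at 2.67, 2.62, 2.65 and 2.67 times its copy HIST2H4B, a near-constant ratio, and the reads may not separate the copies. The medians of the 14 genes were -2.15, -2.56 and -2.71. HIST1H4G, an H4 gene at 0, 0.994, 0.997 and 0 FPKM, did not reach the minimum.

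**Figure D2:**
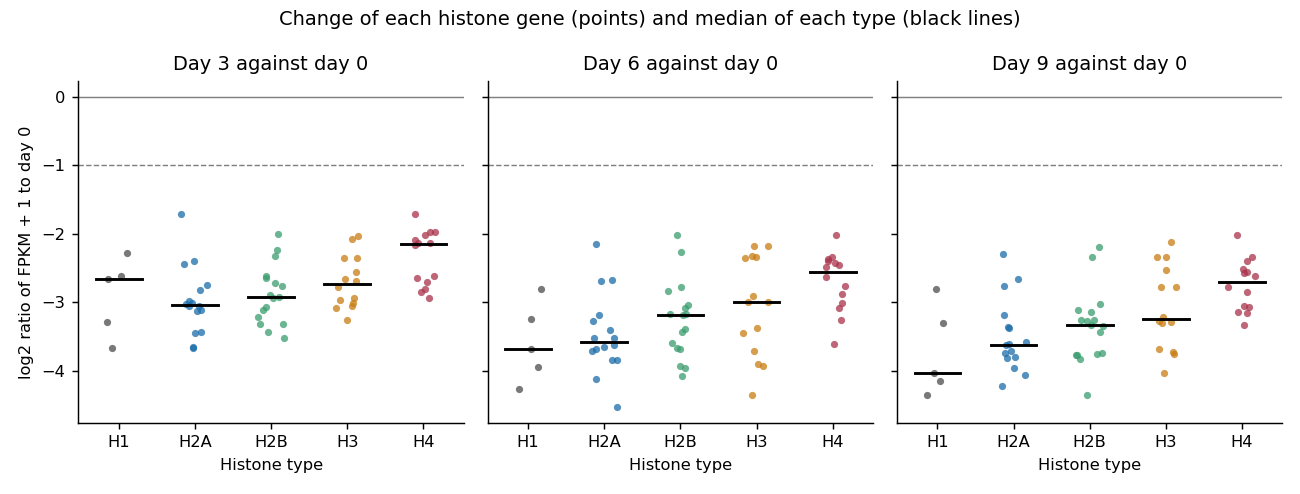
log2 ratio of FPKM + 1 to day 0 for each of the 66 histone genes (points), by histone type, on days 3, 6 and 9; black lines are medians, the dashed line is the 2-fold limit and points are spread sideways for sight only. Every point lies below the limit, and the H4 median (-2.71 on day 9) is the highest of the types while that of H1 (-4.03) is the lowest.

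The types therefore dropped unevenly, and the makeup of the histone mRNA pool shifted. Summed per type, H2A stood at 8888, 1013, 726 and 728 FPKM over the 4 libraries, and H4 at 10445, 2143, 1723 and 1661 FPKM. H2A was thus 12.2-fold lower on day 9 and H4 6.29-fold lower. H2B was 9.47-fold, H3 8.61-fold and H1 10.3-fold lower on day 9. The share of H4 in the histone sum was 30.8% on day 0 and 40.1%, 41.9% and 41.9% later, while that of H2A was 26.2%, 18.9%, 17.7% and 18.3%. The summed level of H2A per H4 was 0.851 on day 0 and 0.473, 0.422 and 0.438 on the later days. The ratio of H3 to H4 was 0.546, 0.413, 0.392 and 0.399, and that of H2B to H4 was 0.592, 0.415, 0.413 and 0.393. On day 9, 14 of 16 H2A genes had a lower log2 ratio than the H4 median, and no H4 gene had a lower one than the H2A median. A ratio between types within a library does not depend on how that library was scaled, but it rests on 1 library a day.

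**Figure D3:**
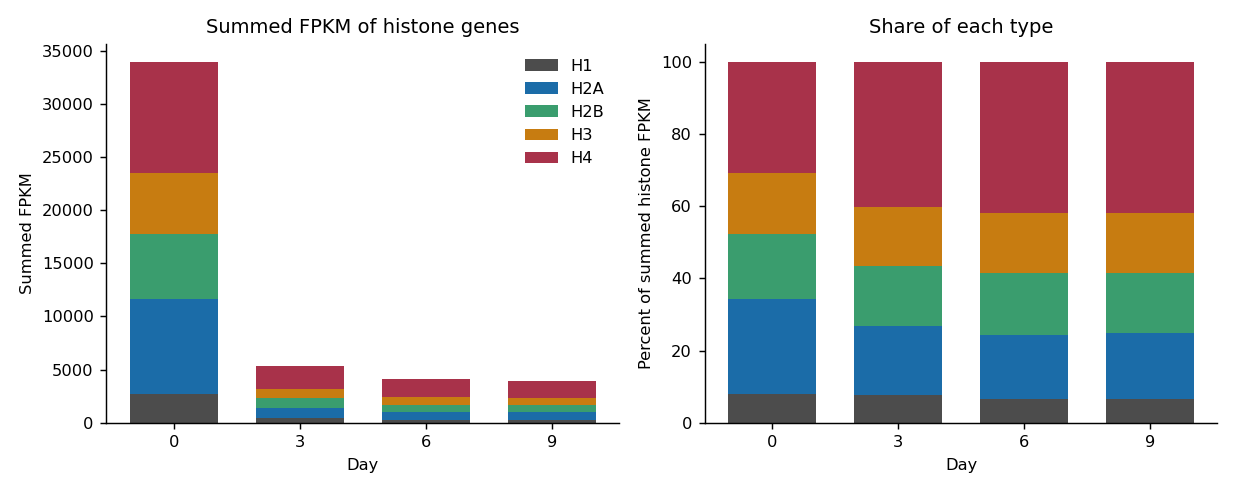
Left, FPKM summed over the histone genes of each type (stacked bars) on each day, 1 library per day. Right, the share of each type in that sum in percent. The bars drop from 33929 to 5346 FPKM between day 0 and day 3, and the H4 share grows from 30.8% to 40.1% while the H2A share shrinks from 26.2% to 18.9%.

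The members lie in 4 groups of genes, which differ in the types they hold. Positions are those of RefSeq on GRCh38.p14. The first block of the major cluster (HIST1), on chromosome 6 between 25726063 and 26285534, holds 34 members, and the second, between 27132316 and 27893891, holds 21. Their medians on day 9 were -3.30 over 30 genes and -3.36 over 21 genes. The 12 HIST2 genes on chromosome 1 had a median of -3.20. The 2 HIST3 genes counted, also on chromosome 1, had a median of -2.25, and HIST4H4 had -2.02. The medians of HIST1 and HIST2 thus lay close together, and the 3 genes of the small clusters stood above them.

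Partners that share a promoter region had log2 ratios within 0.68 of each other on day 9. In 10 pairs of an H2A and an H2B gene with both members counted, the starts lie 194 to 248 bases apart on opposite strands. The ratios of the partners differed by 0.36 in the median pair and by 0.03 in the closest. In HIST1H2AI and HIST1H2BL, the ratios were -3.74 and -3.76. HIST1H2AI had 913 FPKM on day 0 and 67.6 on day 9, and HIST1H2BL had 385 and 27.4. In HIST3H2A and HIST3H2BB, the ratios were -2.30 and -2.19. The pair with the widest gap was HIST1H2AK and HIST1H2BN, at -3.82 and -3.14. HIST2H2BE, whose promoter is printed above, faces HIST2H2AC with 236 bases between their starts, so the printed run holds the region between them and the first bases of HIST2H2AC. HIST2H2AC had 561, 70.3, 52.0 and 46.1 FPKM, a ratio of -3.58 on day 9 beside -3.12 for HIST2H2BE. Levels were less alike than ratios, and the H2A partner was the more abundant in 7 of the 10 pairs on day 0. No set of unpaired genes was drawn for comparison.

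**Figure D4:**
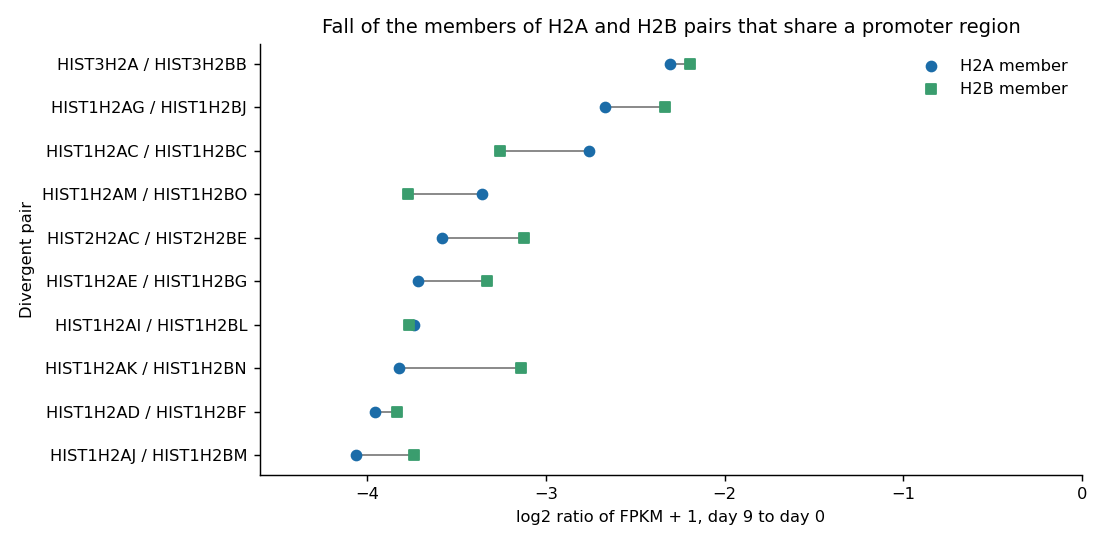
log2 ratio of FPKM + 1 on day 9 to day 0 for the H2A gene (circle) and the H2B gene (square) of 10 divergent pairs, 1 row per pair. The gap between partners (grey line) is 0.36 in the median pair and at most 0.68.

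Within H4, where promoters with and without CCAAT occur, the 3 genes with it had a median log2 ratio of -2.85 on day 9 and the 9 without it -2.58. The 6 H4 genes with TATAAA had a median of -2.46 and the 6 without it -2.95, while in H3 the 9 genes with it stood at -2.79 and the 3 without at -3.28. In H2A, 10 genes with the octamer had a median of -3.65 and 5 without it -3.63, and in H2B 13 with it had -3.35 and 4 without it -3.09. The H2B genes with the octamer ran from -4.35 to -2.34, and the 3 H3 genes without TATAAA only from -3.30 to -3.22. These 3 include HIST1H3D, whose window is also that of HIST1H2AD. With groups of 3 to 13 genes, no reading is drawn from these differences.

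A minority of histone genes is known to make a spliced or longer polyadenylated mRNA in cells that no longer divide. The 9 genes of this kind were HIST1H1C, HIST1H2AC, HIST1H2BC, HIST1H2BD, HIST1H2BJ, HIST1H2BK, HIST2H2BE, HIST3H2A and HIST4H4. All 9 were lower on all 3 days, as were all 66 members counted and 3.45% of genes. The 9 had medians of -2.33, -2.78 and -2.80, and the other 57 had medians of -2.86, -3.28 and -3.33. The 9 mix histone types and were chosen with earlier results of these data known, so no reading is drawn from this difference. HIST1H2BK, at 461, 41.8, 41.8 and 47.3 FPKM, had a ratio of -3.43 on day 3, below the median of the other genes, and -3.26 on day 9, close to it, and HIST1H2BC, at 553, 64.9, 60.2 and 57.0, had a ratio of -3.26. The table lists more than 1 transcript for 11 members, and 10 of their 13 minor transcripts reached 1 FPKM in any library. Some reached it through day 0 alone, such as ENST00000314332 of HIST1H2BC, with 7.04, 0.652, 0.583 and 0.528 FPKM. No count of lower minor transcripts is therefore given. The minor transcript ENST00000289316 of HIST1H2BD had 3.40, 6.26, 1.75 and 2.79 FPKM, while the main one, ENST00000377777, went from 856 to 130, 118 and 102. That minor transcript was under 1% of the gene's FPKM on day 0 (0.395%). For HIST1H2BB, both transcripts listed dropped, from 155 to 9.68 FPKM and from 146 to 4.14 FPKM between day 0 and day 9.

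The histones listed here as replication-independent, most of which are also made outside S phase, behaved differently from gene to gene. Of 12 such genes, 11 were counted, 3 were lower on day 3 and 5 on days 6 and 9, and 0 were higher, beside 5.3%, 6.42% and 6.52% of all genes lower and 8.13%, 9.01% and 9.6% higher. The linker histone H1F0 was lowest, with 182 FPKM on day 0 and 79.7, 32.2 and 24.5 later, a log2 ratio of -2.84 on day 9. Its drop was spread over the time course: -1.18 on day 3 and -2.46 on day 6. CENPA, the H3 of the centromere, had 54.5, 12.03, 12.01 and 11.4 FPKM. H1FX, another linker histone, had 130, 74.3, 51.4 and 42.1 FPKM, and H2AFX, the H2A form that marks DNA breaks, had 230, 119, 109 and 110. H2AFX was past the limit on days 6 and 9, at -1.08 and -1.07, but not after either rescaling of the libraries. The fifth gene lower on day 9 was H3F3B at a ratio of -1.004, just at the limit and within it after either rescaling, with 532 FPKM on day 0 and 265 on day 9. The other H3.3 gene, H3F3A, had 290, 305, 290 and 286 FPKM, and H2AFV had 197, 224, 208 and 203 FPKM. H2AFY (macroH2A1) had 109, 144, 145 and 140 FPKM, a ratio of 0.35 that did not reach the limit. H2AFZ went from 838 to 403, 415 and 452 FPKM and was past the limit on days 3 and 6, at -1.05 and -1.01, but not after either rescaling of the libraries.

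Genes that transcribe histone genes and process their mRNAs stayed within the 2-fold limit. All 16 were counted, with 0 lower and 0 higher on each of the 3 days and medians of -0.22, -0.26 and -0.24. Of all genes counted, 5.3% to 6.52% were lower and 8.13% to 9.6% higher, so most genes also stayed within the limit and the count is close to that of genes in general. SLBP, the stem-loop binding protein, had 66.6 FPKM on day 0 and 49.0, 59.3 and 67.3 later. NPAT, the activator of histone transcription at the histone locus body, had 16.7, 27.8, 27.3 and 26.1 FPKM, and CASP8AP2 (FLASH), which acts in 3′ end cleavage, had 22.8, 25.4, 26.9 and 26.7. LSM10 and LSM11, proteins of the U7 particle, had log2 ratios of -0.64 and 0.39 on day 9. ERI1, the nuclease that trims and degrades histone mRNA, had 15.1, 8.77, 9.44 and 10.5 FPKM.

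Of 18 chaperones and related proteins that handle new histones, 2 were lower on day 3 and 1 on days 6 and 9, and 0 were higher. Of all genes counted, 5.3%, 6.42% and 6.52% were lower and 8.13%, 9.01% and 9.6% higher. With 18 genes, no reading is drawn from these counts. IPO4, an importer of H3 and H4, had 17.0, 3.32, 3.54 and 4.17 FPKM. HJURP, the chaperone of CENPA, was lower on day 3 at a ratio of -1.01, with 54.3 and 26.5 FPKM on days 0 and 3. ASF1B, which passes H3 and H4 on during DNA synthesis, had 53.4, 98.1, 100 and 107 FPKM, a ratio of 0.99 on day 9 that passes the limit under either rescaling of the libraries. The CAF-1 subunits CHAF1A and CHAF1B had ratios of 0.08 and -0.08 on day 9, and NASP, which keeps a store of H3 and H4, -0.66.

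Most S phase and proliferation markers, like most genes, stayed within the 2-fold limit. Of 16 counted, 3, 2 and 3 were lower on the later days in turn (5.3%, 6.42% and 6.52% of all genes were) and 0 were higher (8.13%, 9.01% and 9.6% of all genes), with medians of -0.16, -0.22 and -0.10. The lower ones on day 9 were MCM6, a subunit of the replicative helicase (28.5, 8.75, 8.27 and 8.22 FPKM), the cyclin CCNA2 (102, 38.9, 37.8 and 36.9) and MKI67 (116, 52.3, 57.8 and 53.6). MKI67, at a ratio of -1.10 on day 9, is not past the limit on days 3 and 9 when libraries are scaled to the same sum. PCNA, the clamp of the replication fork, had 159 FPKM on day 0 and 313, 285 and 296 later, a ratio of 0.90 on day 9 that passes the limit when libraries are scaled to the same sum. RRM2 and TYMS, which supply DNA precursors, had ratios of 0.83 and 0.77, and the cyclins CCNE1 and CCNE2 had 0.82 and 0.96. The other MCM subunits had ratios between -0.86 (MCM5) and 0.00 (MCM4). Fewer cells in S phase and less histone mRNA per cell cannot be told apart in these bulk libraries. The members and these lists were measured in the same 4 libraries.

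**Figure D5:**
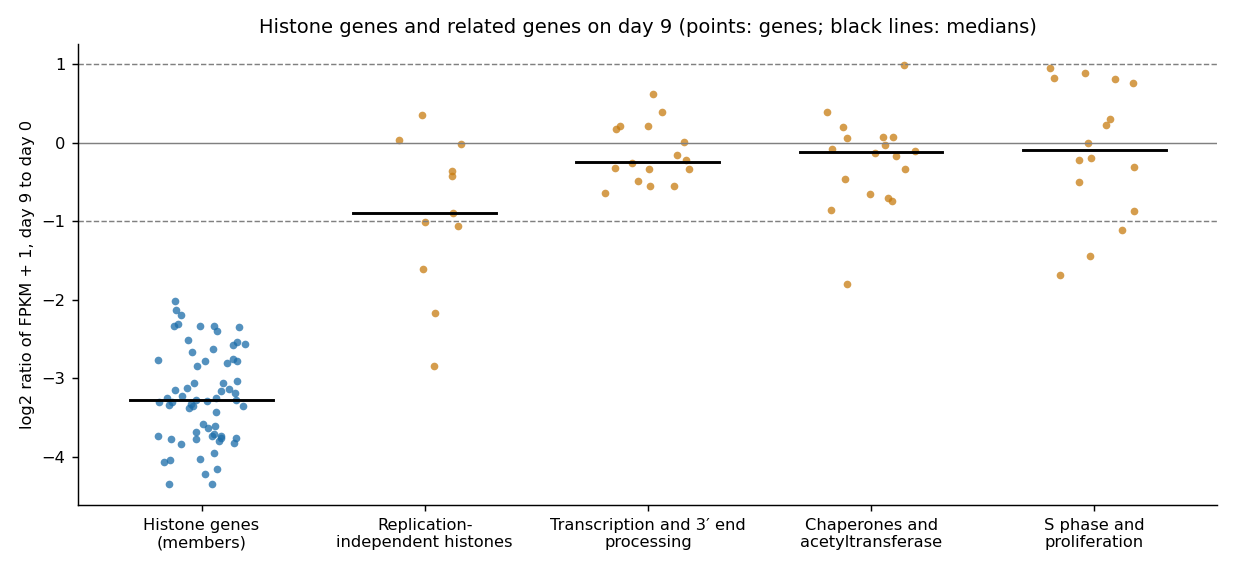
log2 ratio of FPKM + 1 on day 9 to day 0 for the 66 histone genes and the genes of 4 related lists (points), with medians as black lines and the 2-fold limits dashed. All histone genes lie between -4.35 and -2.02, while the list medians lie between -0.89 and -0.10.

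Several values that bear on how histone mRNA was sampled are given beside these results. Libraries were made after removal of ribosomal RNA and no selection for poly(A) is described, while the labels name RNase R, a nuclease that digests linear RNA, for the mRNA libraries. The labels give it for the mRNA and not the circRNA libraries, the reverse of its usual use, and which libraries received it cannot be settled here. Whether its effect differed between days was not tested. MALAT1, a nuclear RNA whose end also has no poly(A) tail, had 2780 FPKM on day 0 and 6940, 5652 and 4040 later, and NEAT1, of which a long form ends in the same way, had 404, 840, 720 and 364. Both were chosen after their values were seen. The 32 other genes counted whose loci span at most 1000 bases had median log2 ratios of -0.04, -0.01 and 0.03, with 5, 3 and 3 lower and 3, 9 and 7 higher on days 3, 6 and 9. Of all genes counted, 5.3%, 6.42% and 6.52% were lower and 8.13%, 9.01% and 9.6% higher, which are smaller shares than among these 32. The 32 included H2BFS, a further H2B gene outside the symbol rule, with 17.98, 1.83, 1.09 and 1.36 FPKM. The fragments counted behind each FPKM are not given in the sources used here, so no interval is given.

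The label of the cells was checked against markers. Of 9 osteoblast markers, 6 reached 1 FPKM in any library, and their summed level was 2024, 4332, 3721 and 3013 FPKM. COL1A2 rose from 125 to 561 FPKM by day 9, ALPL from 0.294 to 4.18 and RUNX2 from 7.37 to 18.2. The late markers BGLAP and IBSP were listed at 0 on day 0 and stayed under 1 FPKM, as did SP7. Of 18 markers of blood, endothelium, epithelium, fat, cartilage and muscle, only CD14 reached 1 FPKM, at 1.07 on day 0.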

How the data were processed

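Total RNA of hFOB 1.19 cells was sequenced by the authors in 1 library for each of days 0, 3, 6 and 9. The labels name removal of ribosomal RNA, RNase R and a directional library kit. The submitters' processing notes name Bowtie 0.12.2 and a mouse build, while the study's methods name later Bowtie and TopHat versions. The program behind the FPKM and its genome build are not given in the sources used here. The authors deposited FPKM per transcript for mRNAs and lncRNAs. The authors' deposited loci of 60 members, used only as positions, all overlap RefSeq positions on GRCh38.p14, and 24 of 32 loci of at most 1000 bases span a multiple of 3. Many gene models may therefore hold only the coding part.

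FPKM was summed per symbol with Python 3.11.15, numpy 2.4.6 and pandas 2.3.3, and figures were drawn with matplotlib 3.10.9. The log2 ratio is that of FPKM + 1, so it understates the change of low genes. Genes with at least 1 FPKM in any library were counted, and the limit was 2-fold. Folds are ratios of FPKM without an added value. The rule was run on simulated data only for abundant genes, with small noise and with changes well past the limit. How it behaves near the limit, for low genes or with the noise of these libraries was not tested. The fragments behind each FPKM are not given in the sources used here, and no counting interval was computed. Old symbols of all 71 members were matched to current ones.

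Named genes are, per type, the 3 with the highest mean FPKM, the lowest and highest log2 ratio on day 9, those that rose, and genes of the lists. HIST1H2AI with HIST1H2BL, HIST1H2AK with HIST1H2BN, HIST2H2AC, HIST1H1A, HIST1H1D, HIST2H2AB and HIST1H3J were named for position or after their values were seen. HIST1H3D and HIST1H2AD were named for their shared RefSeq start. The members and lists were chosen with earlier results of these data known. The alternatives concern the pseudocount, minimum, scaling, transcript level, limit and the most abundant member. The authors' comparisons between days, which hold fold changes and p-values, were not used, nor were circRNA counts and 26 further columns of per-sample values.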

Additional observations from a re-analysis of the deposited data

How the results depend on the processing

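On each later day, 66 members stayed lower and none was higher with a pseudocount of 0.1, with no minimum (71 genes), after setting the median ratio of all genes to 0 and after rescaling each library to the same FPKM sum (chosen after seeing the data). The rescaling to the same sum adds back the log2 ratios of all summed FPKM to day 0, which were -0.20, -0.18 and -0.12. A minimum of 10 FPKM left 65 of 65 members lower, transcripts taken singly 74 of 76, and the 4-fold limit 62 on day 3 and 66 on days 6 and 9. The share of all transcripts past the limit was not computed. With a pseudocount of 5, 65 were lower on day 6, and HIST2H3PS2 was at -0.98. The summed histone FPKM on day 9 ranged from -3.17 to -2.98 on the log2 scale (ratio to day 0) over its alternatives, H2A from -3.61 to -3.49 and H4 from -2.76 to -2.54, the lowest H4 value being that without HIST1H4J. The member median on day 9 ranged from -3.32 to -3.12. Between later days, the 3 members lower on day 6 than on day 3 became 1 with a pseudocount of 5 and 0 at 4-fold, while a pseudocount of 0.1 gave 1 higher on day 6 and 1 lower on day 9 than on day 6.

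For the replication-independent histones, the 4-fold limit left 1, 2 and 2 lower on days 3, 6 and 9, the same-sum scaling 1, 3 and 3, and the median scaling 3 and 3 on days 6 and 9. For the chaperones, the count of 2 lower on day 3 became 1 with a pseudocount of 5, with either scaling and at 4-fold, and 4-fold left 0 on days 6 and 9. ASF1B passed the limit upward, as 1 higher gene, under the same-sum scaling on all 3 days and with a pseudocount of 0.1 or the median scaling on day 9. For the S phase markers, 4-fold left 0 lower on each day, the same-sum scaling gave 1, 2 and 2 higher and 2 lower on days 3 and 9 (MKI67 lost), and the median scaling 1 higher on days 3 and 9 (PCNA and CCNE2). No paired analysis was possible because only 1 library was made per day.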

Other observations

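Of the 50 genes with the lowest log2 ratio on day 9, 8 were not members, and 4 of these are given here, chosen after their values were seen. PLK1, a kinase of mitotic entry, had 130 FPKM on day 0 and 8.02, 6.19 and 8.03 on days 3, 6 and 9. CDC20, which activates the complex that ends metaphase, had 160, 20.7, 15.2 and 14.2 FPKM, and the kinesin KIF20A had 118, 11.9, 9.90 and 10.2. The others were EXOG, RP1-34B20.21, LUZP6 and IFIT1. RBM3, known to be induced by cold, had 272, 9.21, 8.35 and 8.32 FPKM and the lowest log2 ratio of all genes on day 9, -4.87. Only day 0 was kept at the lower temperature, but day, temperature and loss of large T activity cannot be told apart, and no cause was tested.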
